A study of Homo sapiens with 9 samples.

Results

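The BCL2 family of apoptosis regulators was examined as 10 genes, chosen by symbol in the deposited table: BCL2L1 and MCL1 (anti-apoptotic), BAX and BAK1 (effectors), and BID, BIK, BAD, BBC3, PMAIP1 and BCL2L11 (BH3-only). All 10 of the 19930 genes listed were found, and all 10 were among the 12884 genes whose mean over the libraries reached 1 FPKM (fragments mapped to a gene, scaled by transcript length and library size). RNA was taken 48 h after transfection with Lipofectamine of cells labelled MDA-MB-453, an established human breast cancer cell line. The groups compared held 3 libraries each: si-LINC00673-1 and si-LINC00673-2, a pair of siRNAs against the long noncoding RNA LINC00673, and si-NC, the control siRNA. The knockdown was transient and in 1 cell line, no other treatment separates the groups, and LINC00673 itself was not analysed here. The comparison asks how the transcripts of apoptosis regulators differed between knockdown and control cells.

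Several defining genes of the MDA-MB-453 line went against the label. FOXA1 was between 0 and 0.04 FPKM, GATA3 between 0.41 and 0.88 and SPDEF between 0.57 and 1.24 in the 9 libraries. The luminal keratins KRT8, KRT18 and KRT19 were at 1043.54 FPKM or more and ERBB2 was between 11.8 and 17.8. Markers of other cell types were low, with PTPRC (leukocytes), COL3A1 and DCN (fibroblasts) at or below 0.07 FPKM, PECAM1 (endothelium) at or below 0.12, VWF at or below 0.87 and COL1A1 between 3.49 and 7.08. The estimated depth was 23.1 to 27.6 M fragments per library, and the correlation of log2 values within a group was at least 0.9945. No label says that the 3 libraries of a group came from separate cultures, so P values here measure the spread between libraries, which may be technical.

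The BCL2 family decides whether the outer mitochondrial membrane is opened. BAX and BAK1 form the pores through which cytochrome c leaves the mitochondrion and caspases are switched on. Anti-apoptotic members hold the effectors and the BH3-only proteins in check, and BH3-only members, named after the single BCL2 homology domain they keep, sense stress and either block the anti-apoptotic members or activate the effectors. Transcript level is only one layer of this control, since several members are regulated by phosphorylation, cleavage or rapid turnover of the protein.

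Members of the same class differed in direction, and in FPKM as deposited the makeup of a class moved more than its sum. PMAIP1 rose and BBC3 fell with both siRNAs, and BAK1 rose with both. In the values as deposited, BAX and BAD fell with si-LINC00673-1. Their calls were lost when libraries were scaled to the same total and when values were corrected for GC content, where BAD changed sign. MCL1 rose with si-LINC00673-2. A call needed a fold change of at least 1.3 (0.38 on the log2 scale) and an unadjusted P of at most 0.05 in limma, on log2(FPKM + 1). Differences below are on that scale, with standard errors (SE) and Benjamini-Hochberg adjusted P over all 12884 genes, and they understate the fold change of low genes. Both knockdowns were set against the same si-NC libraries, so the comparisons are not independent of each other.

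Promoters of 4 members on which the results turn are shown, to set their letters beside the values: the effector pair, whose differences had opposite signs, and BBC3 and PMAIP1, the 2 BH3-only genes called with both siRNAs. Each line holds the 250 bases before the start that RefSeq lists on GRCh38.p14, 5′ to 3′ on the gene's own strand. BAX is chr19:48954625-48954874 (+ strand), BAK1 is chr6:33580277-33580526 (- strand), BBC3 is chr19:47232668-47232917 (- strand) and PMAIP1 is chr18:59899746-59899995 (+ strand). Capitals mark the E-box CACGTG, the letters TGACGT of the cyclic AMP response element, the ATF4 element TGATGNAA and a heat shock element pair GAANNTTC, on either strand. The E-box and the cyclic AMP letters share ACGT and can overlap.
BAX: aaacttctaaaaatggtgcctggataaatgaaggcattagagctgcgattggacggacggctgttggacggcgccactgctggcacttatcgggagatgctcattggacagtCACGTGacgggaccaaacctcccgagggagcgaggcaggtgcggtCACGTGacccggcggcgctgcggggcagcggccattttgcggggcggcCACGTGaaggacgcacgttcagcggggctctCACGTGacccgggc
BAK1: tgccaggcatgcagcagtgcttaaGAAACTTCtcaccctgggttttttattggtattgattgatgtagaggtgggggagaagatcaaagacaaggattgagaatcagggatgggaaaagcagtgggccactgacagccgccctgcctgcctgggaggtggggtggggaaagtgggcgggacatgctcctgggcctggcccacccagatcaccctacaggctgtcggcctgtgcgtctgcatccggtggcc
BBC3: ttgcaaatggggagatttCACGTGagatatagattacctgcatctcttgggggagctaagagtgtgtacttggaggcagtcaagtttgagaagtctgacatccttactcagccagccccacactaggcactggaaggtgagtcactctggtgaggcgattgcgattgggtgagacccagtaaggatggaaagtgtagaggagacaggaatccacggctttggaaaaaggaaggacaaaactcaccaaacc
PMAIP1: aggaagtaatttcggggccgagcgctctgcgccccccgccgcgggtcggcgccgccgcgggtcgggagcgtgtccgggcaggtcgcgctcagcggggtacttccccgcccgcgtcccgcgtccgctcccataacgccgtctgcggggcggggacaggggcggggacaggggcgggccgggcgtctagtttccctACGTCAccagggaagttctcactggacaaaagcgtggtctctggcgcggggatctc

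The BAX window holds 4 E-boxes and the BBC3 window 1, while 6.3% of 35116 RefSeq promoter windows of this length hold the motif. PMAIP1 has 1 match to the cyclic AMP letters (7.1% of windows) and BAK1 has 1 heat shock pair (5.8%). Of the members not shown, BAD also has the cyclic AMP letters in its windows, and some windows of BID hold an E-box. The ATF4 element (3.1%) was matched in none of the members' windows. The GC box GGGCGG, which 42.6% of windows hold, occurs 4 times before PMAIP1, 2 times before BAK1 and 1 time before BAX and is left in lower case. Windows were found for 8 of the 10 members. These matches describe letters only.

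Of the anti-apoptotic members, BCL2L1 had the higher level with si-NC and MCL1 the higher level with si-LINC00673-2. BCL2L1, which encodes BCL-xL, was at 131.92, 125.83 and 128.56 FPKM in the si-NC libraries, at 115.04, 121.51 and 117.14 with si-LINC00673-1, and at 109, 111.12 and 117.56 with si-LINC00673-2. The 6 knockdown libraries all lay under the lowest si-NC library, and the siRNA groups overlapped. Its differences from si-NC were -0.13 (SE 0.04, adjusted P = 0.011) and -0.19 (SE 0.04, adjusted P = 7.8e-04), under the fold limit for both siRNAs.

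MCL1, a short-lived anti-apoptotic protein, was at 96.89, 99.3 and 97.33 FPKM with si-NC. The si-LINC00673-1 libraries held 113.89, 114.3 and 114.82 FPKM, and those of si-LINC00673-2 held 138.38, 133.47 and 128.28. None of the 3 groups overlapped. MCL1 rose by 0.44 with si-LINC00673-2 (SE 0.03, adjusted P = 9.4e-07), a 1.36-fold increase in mean FPKM. With si-LINC00673-1 the difference was 0.22 (SE 0.03, adjusted P = 1.3e-04), under the fold limit, and the direct difference between the siRNAs was 0.22 (adjusted P = 4.9e-04), also under it. The ratio of MCL1 to BCL2L1 was 0.76 ± 0.03 (SD, n = 3) with si-NC, 0.97 ± 0.03 with si-LINC00673-1 and 1.19 ± 0.09 with si-LINC00673-2, and the 3 groups did not overlap. BCL2 itself, the gene that gave the family its name, was between 0.05 and 0.17 FPKM in the 9 libraries and was not tested.

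The effectors differed from si-NC in opposite directions. BAX, a pore former that is mostly cytosolic until activated, was at 70.76, 66.62 and 65.23 FPKM with si-NC, at 51.92, 48.7 and 49.6 with si-LINC00673-1 and at 53.34, 56.41 and 56.81 with si-LINC00673-2. The si-NC libraries were the highest and the si-LINC00673-1 libraries the lowest, with no overlap between any pair of groups. BAX fell by 0.42 with si-LINC00673-1 (SE 0.04, adjusted P = 1.2e-05). With si-LINC00673-2 its difference was -0.28 (SE 0.04, adjusted P = 1.7e-04), under the fold limit. The call with si-LINC00673-1 was lost when values were scaled to TPM (the same total in each library, -0.34) and when they were corrected for GC content (-0.29).

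BAK1, the effector that resides in the outer mitochondrial membrane, was at 24.24, 22.95 and 23.43 FPKM with si-NC. The values were 32.54, 32.97 and 31.47 FPKM for si-LINC00673-1, and 33.36, 36.22 and 37.38 for si-LINC00673-2. Every knockdown library lay above every si-NC library, and the si-LINC00673-2 libraries above those of si-LINC00673-1. BAK1 rose by 0.44 with si-LINC00673-1 (SE 0.04, adjusted P = 1.5e-05) and by 0.58 with si-LINC00673-2 (SE 0.04, adjusted P = 1.8e-06), and the siRNAs differed by 0.14 (adjusted P = 0.031), under the fold limit. The ratio of BAK1 to BAX was 0.349 ± 0.00909 (SD, n = 3) with si-NC, 0.646 ± 0.0271 with si-LINC00673-1 and 0.642 ± 0.0163 with si-LINC00673-2. Both knockdown groups lay wholly above si-NC and overlapped each other. An exact two-sided permutation test of 3 libraries against 3 cannot go under P = 0.1, so no P is given for such ratios. In a culture, fewer cells of one kind and less RNA per cell cannot be told apart, here or in the results that follow.

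**Figure D1:**
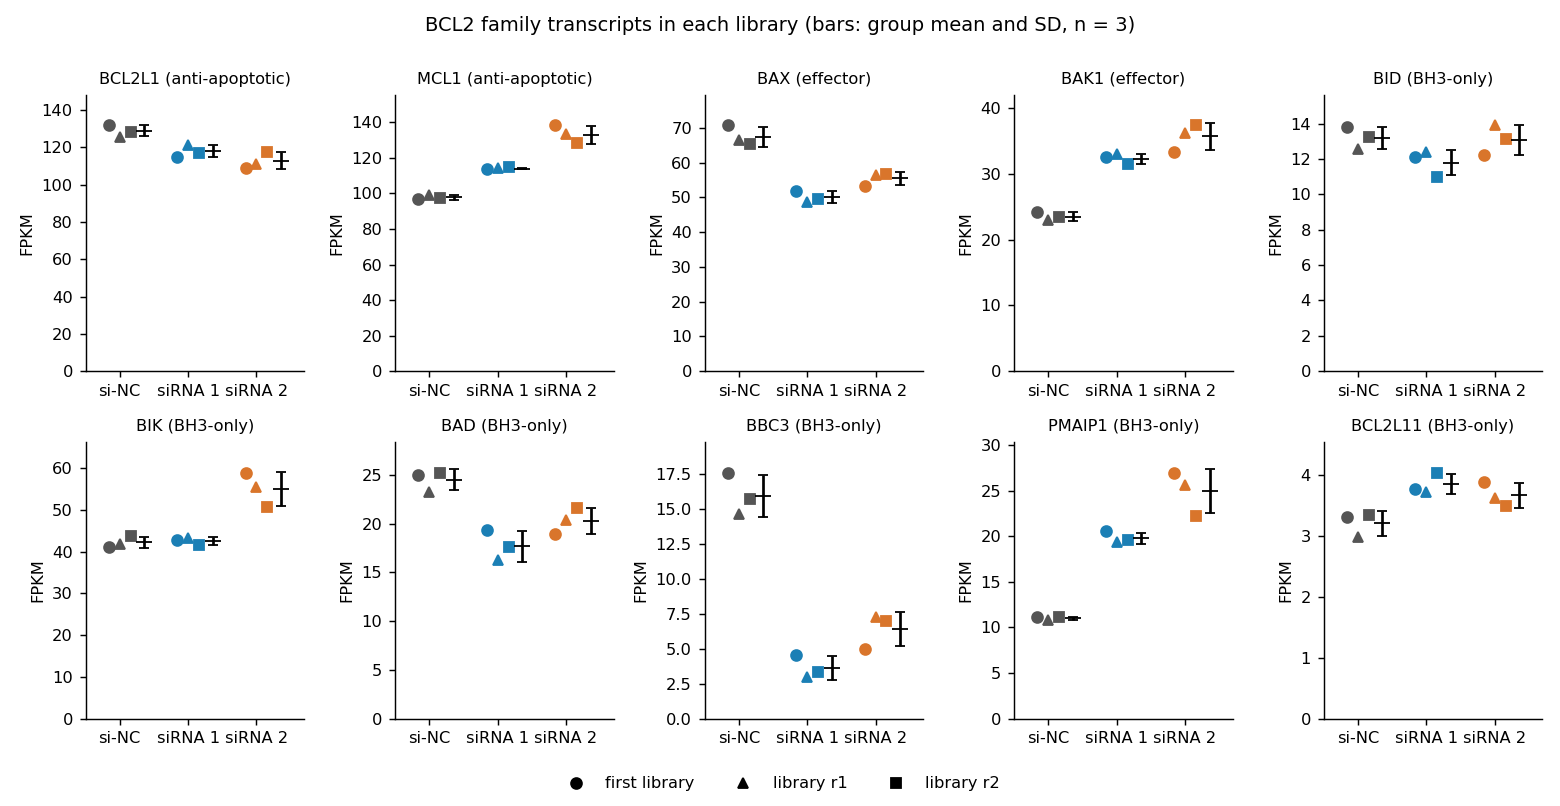
FPKM (vertical axis, from 0) of each of the 10 members in the 9 libraries, grouped by si-NC, si-LINC00673-1 (siRNA 1) and si-LINC00673-2 (siRNA 2); points are libraries and bars the mean and SD of 3 libraries. BBC3 is lower and BAK1 and PMAIP1 are higher in each knockdown library than in each si-NC library, while BID and BIK overlap si-NC in 1 of the knockdown groups.

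The largest differences were in the BH3-only class, and they ran in both directions. BBC3, which encodes the p53-induced protein PUMA, was at 17.57, 14.61 and 15.66 FPKM with si-NC. Libraries of si-LINC00673-1 held 4.58, 2.96 and 3.32 FPKM, and libraries of si-LINC00673-2 held 5, 7.23 and 6.99. The highest knockdown library was under the lowest si-NC library, and the siRNA groups did not overlap. BBC3 fell by 1.89 with si-LINC00673-1 (SE 0.15, adjusted P = 2.8e-06) and by 1.20 with si-LINC00673-2 (SE 0.15, adjusted P = 4.1e-05), and mean FPKM in si-NC was 4.41 and 2.49 times that of the knockdown groups. It was the member that differed past both limits between the siRNAs, higher by 0.68 with si-LINC00673-2 (SE 0.15, adjusted P = 0.0045).

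PMAIP1, which encodes NOXA, a BH3-only protein that binds mainly MCL1, was at 11.11, 10.8 and 11.18 FPKM with si-NC. For si-LINC00673-1 the values were 20.54, 19.43 and 19.56 FPKM, and for si-LINC00673-2 they were 26.98, 25.64 and 22.24. The 3 groups did not overlap, and the si-NC libraries lay close together. PMAIP1 rose by 0.79 (SE 0.06, adjusted P = 2.9e-06) and by 1.11 (SE 0.06, adjusted P = 2.2e-07) with the siRNAs in turn, or 1.80 and 2.26 times the mean FPKM of si-NC. The siRNAs differed by 0.31 (SE 0.06, adjusted P = 0.0029), under the fold limit. The ratio of PMAIP1 to BBC3 was 0.695 ± 0.0559 (SD, n = 3) in the si-NC libraries, 5.65 ± 1.06 in those of si-LINC00673-1 and 4.04 ± 1.19 in those of si-LINC00673-2. It was 3.18 in the lowest knockdown library and 0.739 in the highest si-NC library. This ratio is of FPKM as deposited, and its genes lie far apart in GC content (37.2% for PMAIP1 and 69.7% for BBC3). After correction for GC content, the differences from si-NC were 0.695 and 1.15 for PMAIP1 and -1.38 and -0.71 for BBC3.

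BAD, a BH3-only protein that survival kinases keep inactive by phosphorylation, was at 24.97, 23.2 and 25.21 FPKM with si-NC, at 19.39, 16.23 and 17.55 with si-LINC00673-1 and at 18.94, 20.41 and 21.58 with si-LINC00673-2. Both knockdown groups lay under si-NC and overlapped each other. BAD fell by 0.45 with si-LINC00673-1 (SE 0.07, adjusted P = 2.3e-04), and its difference with si-LINC00673-2 was -0.26 (SE 0.07, adjusted P = 0.0058), under the fold limit. This direction did not hold after correction for GC content, where the differences were 0.06 and 0.24, neither of them called. Whether base composition caused the fall was not tested. Scaling to TPM also ended the call with si-LINC00673-1, at -0.37. The gene overlaps GPR137 on the other strand, and strand use in counting is not given in the sources used here. GPR137 differed from si-NC by 0.09 and 0.10 (adjusted P = 0.25 and 0.19).

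BIK, a BH3-only protein of the endoplasmic reticulum, separated the siRNAs. It was at 41.19, 41.71 and 43.77 FPKM with si-NC, at 42.67, 43.31 and 41.53 with si-LINC00673-1 and at 58.87, 55.46 and 50.6 with si-LINC00673-2. The first pair of groups overlapped and the third lay wholly above both. Its difference from si-NC was 0.01 (SE 0.05, adjusted P = 0.88) for si-LINC00673-1 and 0.37 (SE 0.05, adjusted P = 1e-04) with si-LINC00673-2, just under the fold limit of 0.38. The direct difference of the siRNAs was 0.36 (adjusted P = 5.2e-04), also just under it. BIK passed the limit against si-NC under 3 other scalings, at 0.48 by the median ratio, 0.40 in TPM and 0.49 with GC correction, and without 1 library, r2 of si-LINC00673-2 (0.43) or r2 of si-NC (0.40).

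BID and BCL2L11 were not called in any comparison. BID, which caspase 8 cleaves to link death receptors to the mitochondrion, was at 13.84, 12.57 and 13.22 FPKM with si-NC, at 12.13, 12.38 and 11.01 with si-LINC00673-1 and at 12.21, 13.91 and 13.13 with si-LINC00673-2. The differences from si-NC were -0.15 (95% interval -0.28 to -0.02, adjusted P = 0.05) and -0.01 (-0.15 to 0.12, adjusted P = 0.85). BCL2L11, which encodes the broadly binding activator BIM, was at 3.3, 2.97 and 3.33 FPKM with si-NC, at 3.77, 3.72 and 4.03 with si-LINC00673-1 and at 3.88, 3.61 and 3.49 with si-LINC00673-2. All 6 knockdown libraries of BCL2L11 lay above si-NC, with differences of 0.21 (SE 0.06, adjusted P = 0.009) and 0.15 (SE 0.06, adjusted P = 0.035), under the fold limit. Of the 10 members, BCL2L11 had the lowest level with si-NC and with si-LINC00673-2.

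**Figure D2:**
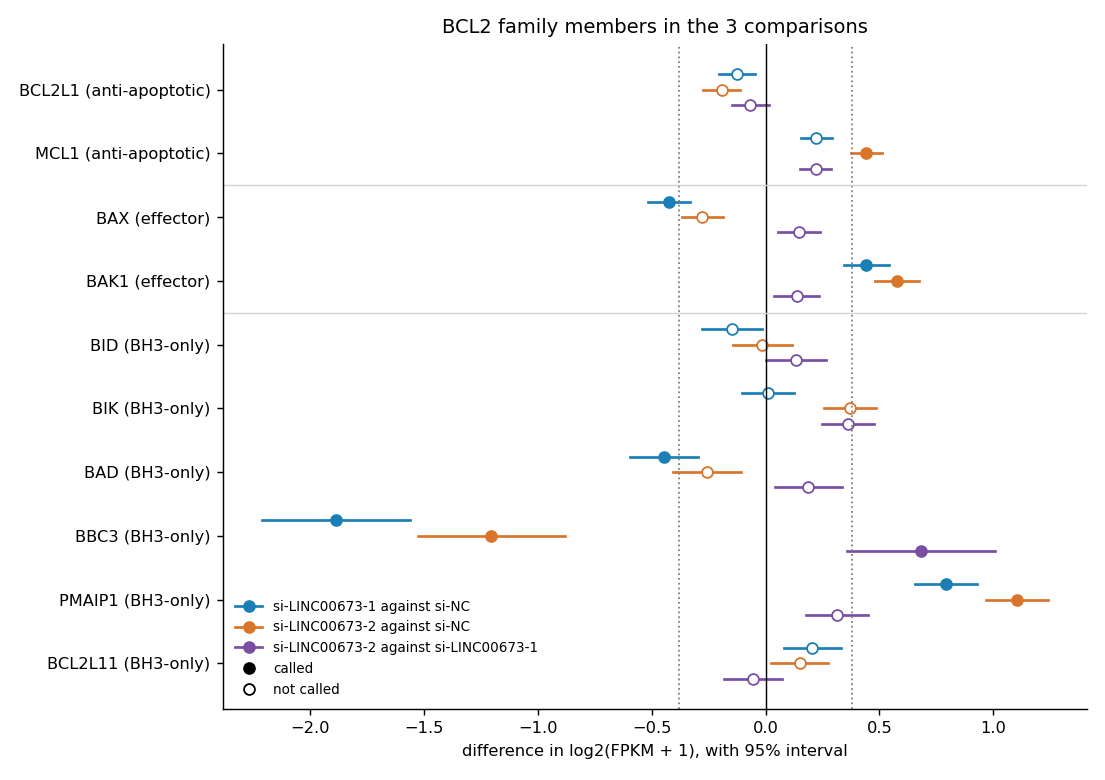
Differences in log2(FPKM + 1) with 95% intervals (horizontal axis) for each member in the 3 comparisons, with filled points for calls, open points for members not called and dotted lines at the fold limit. BBC3 at -1.89 and -1.20 and PMAIP1 at 0.79 and 1.11 lie farthest from 0, on opposite sides.

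With si-LINC00673-1, 2 of the 10 members were called higher (BAK1 and PMAIP1), where 11.1% of all tested genes were, and 3 were called lower (BAX, BAD and BBC3), where 15.6% were. With si-LINC00673-2, 3 members were higher (MCL1, BAK1 and PMAIP1), against 11% of all genes, and 1 was lower (BBC3), against 23.1%. Between the siRNAs, 1 member was higher with si-LINC00673-2 (BBC3), against 2.19%, and 0 were lower, against 5.45%. With no fold limit, 8 members passed P of at most 0.05 in limma between the siRNAs, all of them higher with si-LINC00673-2, where 12.7% of all genes were, and 0 lower, where 39.3% were. At these counts 1 member is 10 percentage points, and the shares are a description of the family.

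The split of calls over all genes depended on the scaling. As deposited, 1432 genes were higher and 2004 lower with si-LINC00673-1, against 2325 and 1726 in TPM. For si-LINC00673-2 the counts were 1411 and 2974, against 1975 and 2246 with the median ratio, and between the siRNAs 282 and 702, against 524 and 321. The calls of BAK1, PMAIP1 and BBC3 with both siRNAs and of MCL1 with si-LINC00673-2 held under each of these scalings.

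By class, the median difference of the 6 BH3-only members was -0.07 for si-LINC00673-1 against si-NC and 0.07 for si-LINC00673-2, beside medians over all genes of 0.0032 and -0.0954. Behind these lay ranges from -1.89 to 0.79 and from -1.20 to 1.11. For the effector pair the medians were 0.01 and 0.15, and for the anti-apoptotic pair 0.05 and 0.12. In each of the 3 classes these medians came from members on both sides of 0.

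Summed FPKM moved little by comparison. The anti-apoptotic sum was 227 ± 1.94 (SD, n = 3) with si-NC, 232 ± 3.45 with si-LINC00673-1 and 246 ± 1.40 with si-LINC00673-2, and the last group lay above the others. The effector sum was 91.1 ± 3.43, 82.4 ± 1.81 and 91.2 ± 3.95 in the same order. In these values as deposited, BAK1 offset BAX with si-LINC00673-2 and not with si-LINC00673-1. The BH3-only sum was 110 ± 3.65, 99.4 ± 3.25 and 123 ± 4.65, with no overlap between groups. BIK gave the largest part of it, 38.4% ± 1.40 with si-NC, 42.8% ± 1.39 with si-LINC00673-1 and 44.5% ± 2.02 with si-LINC00673-2. PMAIP1 gave 9.92% to 10.2% of it in the si-NC libraries, 19.8% to 20.2% with the first siRNA and 18.8% to 21.4% with the other. BBC3 gave 14.5% ± 1.05, 3.63% ± 0.734 and 5.21% ± 1.07. These sums and shares are of FPKM as deposited and were not recomputed under another scaling or with GC correction. Whether the differences between the sums hold there was not tested.

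**Figure D3:**
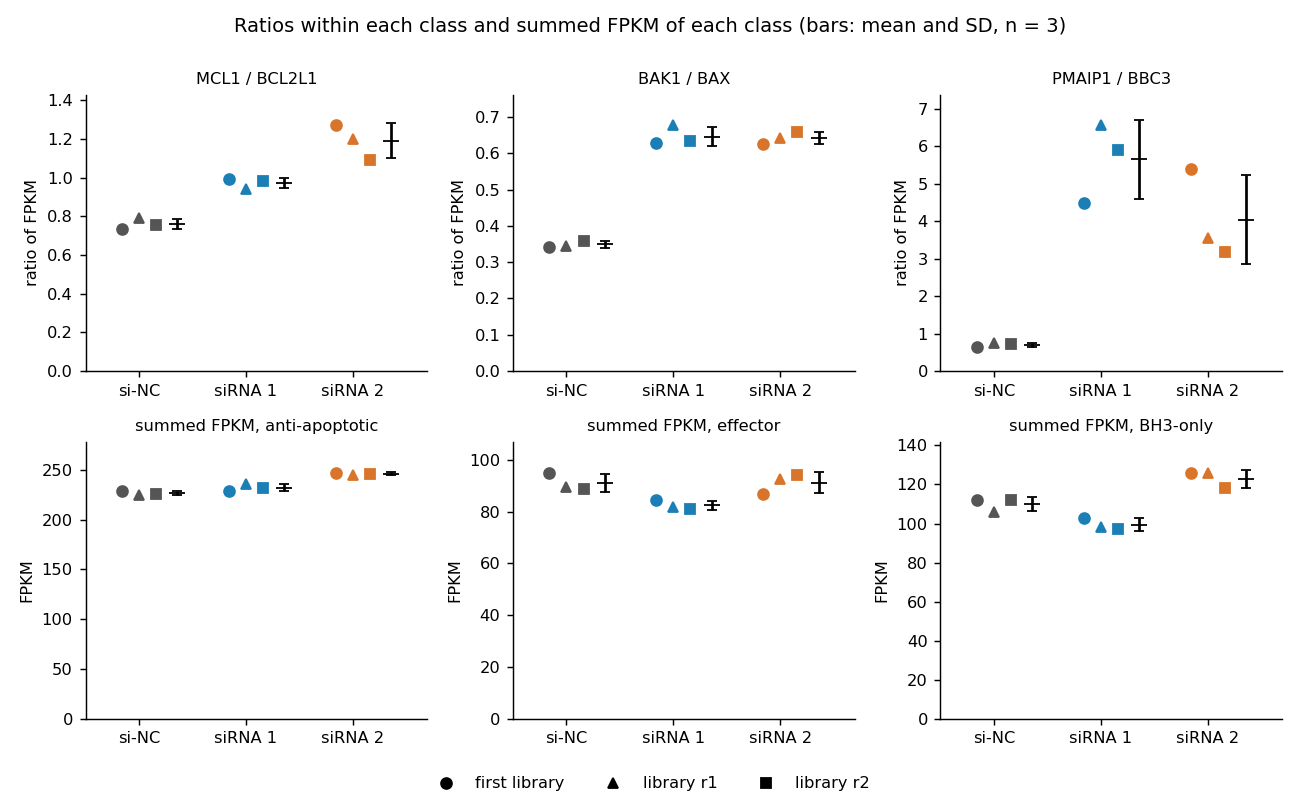
Upper row, ratio of FPKM between the 2 named members in each library; lower row, summed FPKM of each class in each library; bars show the mean and SD of 3 libraries and all vertical axes start at 0. The ratios of BAK1 to BAX and of PMAIP1 to BBC3 are higher in all 6 knockdown libraries than in the 3 si-NC libraries, while the summed effector FPKM of si-LINC00673-2 (91.2) is near that of si-NC (91.1). All values are as deposited, without GC correction.

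The order of levels changed with these shifts. In si-NC it ran BCL2L1, MCL1, BAX, BIK, BAD, BAK1, BBC3, BID, PMAIP1 and BCL2L11, and of the neighbours only BAD and BAK1 overlapped. With si-LINC00673-1 the order was BCL2L1, MCL1, BAX, BIK, BAK1, PMAIP1, BAD, BID, BCL2L11 and BBC3, with BBC3 overlapping BCL2L11. With si-LINC00673-2 MCL1 came first, and BAX (55.5 ± 1.90 FPKM) and BIK (55.0 ± 4.16) could not be separated.

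The differences from si-NC varied with GC content over all tested genes, and the members differ in GC content. The longest transcript of BBC3 has a GC content of 69.7%, above that of 99.7% of tested genes, and that of BAD 66.3%, above 97.7%. In the tenth of genes with the highest GC content (at least 62.3%), 52.9% were called lower with si-LINC00673-1 and 55% with si-LINC00673-2, and the medians were -0.41 and -0.42. The differences of BBC3, -1.89 and -1.20, were larger than these medians. After GC correction they were -1.38 (adjusted P = 3e-07) and -0.71 (adjusted P = 5.8e-05) in limma, still called lower with both siRNAs. The correction is constant past the median of the highest GC bin, so BBC3 and BAD were moved by the same amount. It does not follow the trend out to the GC content of BBC3, and a larger effect of base composition there was not tested. PMAIP1 lies at the other end, with a GC content of 37.2%, and was at 0.69 and 1.15 after correction.

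The effectors have nearly the same GC content, 58.9% for BAX and 58.8% for BAK1. Correction moved both upwards, BAX to -0.29 and -0.09 and BAK1 to 0.57 and 0.76, so BAK1 stayed called with both siRNAs and BAX was not called in either. MCL1 stayed called with si-LINC00673-2, at 0.47. After the correction, 2 members were higher and 1 lower for si-LINC00673-1, where 10.7% and 11.5% of 11190 genes were, and 4 were higher and 1 lower for si-LINC00673-2, where 14.9% were higher and 14.9% lower.

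**Figure D4:**
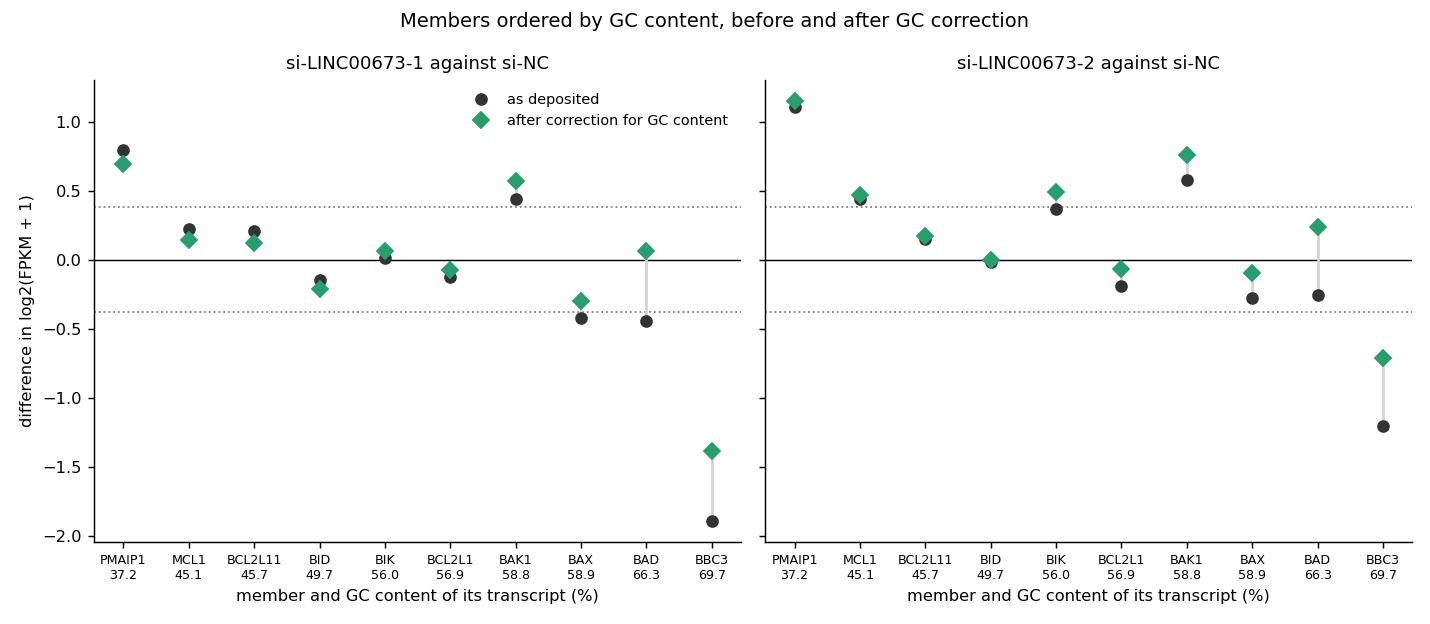
Differences from si-NC in log2(FPKM + 1) (vertical axis) for the members ordered by the GC content of their transcripts (percent, under each name), as deposited (circles) and after GC correction (diamonds), with dotted lines at the fold limit. BAD moves from -0.45 to 0.06 and from -0.26 to 0.24, while BBC3 stays under the lower limit and PMAIP1 and BAK1 above the upper limit in both knockdowns.

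Matches to the seeds of the small RNAs (bases 2 to 8) were sought in the longest coding transcript of each member. The site of si-LINC00673-1, AGGTTTC, occurs 2 times in BID and in no other member (21.0% of 11190 genes hold it), and BID was not called, at -0.15 for that siRNA and -0.01 for the other. The site of si-LINC00673-2, AATAATA, occurs 1 time in MCL1 and in no other member (25.8%), and MCL1 was higher with that siRNA. The site of si-NC, TGTCACG, is in none of the members (7.0%). The study links LINC00673 with miR-515-5p, whose mature sequence in RefSeq is shown with the seed in capitals because its site, TTGGAGA, can be set beside the members' values.
miR-515-5p: uUCUCCAAaagaaagcacuuucug
That site occurs 1 time in PMAIP1, which rose with both siRNAs, and 1 time in BCL2L11, which was not called (38.5% of genes hold it).

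Other genes of the apoptosis machinery were read from lists of textbook members. These lists were chosen with earlier results of these data known, so their counts are a description and no independent test. The counts of each list stand beside the shares over all tested genes, which were 11.1% higher and 15.6% lower with si-LINC00673-1, and 11% higher and 23.1% lower with si-LINC00673-2. In lists this short, 1 gene is a large share. Of 13 further BCL2 family genes, 7 were expressed enough to test, with 1 higher and 2 lower with si-LINC00673-1 and 2 higher and 2 lower with si-LINC00673-2 (14.3% and 28.6%, and 28.6% and 28.6%). BOK, an effector-like relative of BAX, fell from 4.25 ± 0.232 FPKM (SD, n = 3) to 2.86 ± 0.156 and 2.66 ± 0.0473 (-0.44 and -0.52, adjusted P = 5.2e-05 and 1.3e-05). BCL2L12 fell by 0.45 and 0.43 (adjusted P = 3.4e-04 and 4.2e-04) and BCL2L15 rose by 0.40 and 0.48 (adjusted P = 4.1e-05 and 9.4e-06). With GC correction BOK was at 0.053 and -0.032 and BCL2L12 at -0.32 and -0.23, none of them called, BCL2L12 was not called with si-LINC00673-2 by the median ratio (-0.33), and BCL2L15 was not called with si-LINC00673-1 (0.33). Reads of BCL2L2, which was not called, may be shared with the readthrough gene BCL2L2-PABPN1.

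Downstream of the mitochondrion, calls of the apoptosome and caspase genes were near the shares over all genes. Of 10 such genes, 1 was higher and 2 were lower in each knockdown (10% and 20%), and HTRA2, a mitochondrial protease that blocks caspase inhibitors once released, fell by 0.44 and 0.65 (adjusted P = 2.3e-05 and 1.3e-06), the first not called with GC correction (-0.25). Among 5 caspase inhibitors tested, 1 was higher with both siRNAs and 0 were lower (limma), namely BIRC3, which rose from 2.92 ± 0.110 FPKM to 5.55 ± 0.0666 and 5.44 ± 0.252 (0.74 and 0.72, adjusted P = 8e-07 and 5.9e-07). Of 9 death receptor genes tested, 1 was higher and 1 lower with si-LINC00673-1 (11.1% each) and 1 higher and 3 lower with si-LINC00673-2 (11.1% and 33.3%). The gene higher in both was TNFRSF10D, a TRAIL receptor with a truncated death domain, at 22.9 ± 0.497, 35.1 ± 0.428 and 42.0 ± 2.72 FPKM (0.60 and 0.85, adjusted P = 2.2e-06 and 1.5e-07).

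Of 5 genes for mitochondrial partners of the family, 2 were higher with si-LINC00673-1 (40%, against 11.1% of all genes), 3 with si-LINC00673-2 (60%, against 11%) and 0 lower with either in limma (against 15.6% and 23.1%). MTCH2, a receptor for truncated BID on the outer membrane, rose by 0.46 and 0.52 (adjusted P = 1.1e-05 and 3.4e-06), and MOAP1, which binds BAX, rose by 0.42 and 0.47 (adjusted P = 1e-05 and 3.2e-06), the first not called with GC correction (0.35). The 3 genes tested for turnover of MCL1 protein were not called against si-NC. Between the siRNAs, 1 of the 3 was lower with si-LINC00673-2 than with si-LINC00673-1 (33.3%, against 5.45% of all tested genes), and 1 gene is a large share of so short a list.

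Genes of the p53 pathway, to which BBC3, PMAIP1 and BAX also belong, were called in both directions, as genes were over the whole table. Of 13 on the list, 3 were higher and 2 lower with si-LINC00673-1 (23.1% and 15.4%, against 11.1% and 15.6% of all genes), and 3 were higher and 4 lower with si-LINC00673-2 (23.1% and 30.8%, against 11% and 23.1%). CDKN1A, the cell cycle inhibitor p21, rose from 15.4 ± 0.320 FPKM to 30.3 ± 1.44 and 36.2 ± 1.41 (0.93 and 1.18, adjusted P = 1.1e-07 and 1.5e-08). FDXR, a mitochondrial reductase, fell from 21.1 ± 0.862 to 8.71 ± 1.04 and 7.74 ± 0.895 (-1.19 and -1.34, adjusted P = 2.2e-06 and 6.8e-07), and TP53I3 fell by 0.76 and 0.84 (adjusted P = 8.2e-06 and 2.8e-06).

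The list of stress regulators of BH3-only genes held 10 genes, of which CHAC1 is a gene induced by ATF4 rather than a regulator. With si-LINC00673-1, 4 were higher and 2 lower (40% and 20%, against 11.1% and 15.6% of all genes). With si-LINC00673-2, 6 were higher and 2 lower (60% and 20%, against 11% and 23.1%). The shares called lower were thus near those of all genes. CHAC1 and TRIB3, both induced by the transcription factor ATF4, fell, CHAC1 from 11.8 ± 0.297 FPKM to 2.53 ± 0.195 and 0.97 ± 0.110 (-1.86 and -2.70, adjusted P = 2e-08 and 6.8e-10) and TRIB3 from 102 ± 3.80 to 31.4 ± 1.62 and 26.8 ± 0.333 (-1.67 and -1.89, adjusted P = 5.7e-09 and 6.8e-10). JUN, a subunit of AP-1, rose from 59.5 ± 2.84 to 120 ± 10.7 and 245 ± 19.5 (0.996 and 2.02, adjusted P = 1.9e-06 and 1.3e-08). The part of any of these genes in the members' values was not tested.

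**Figure D5:**
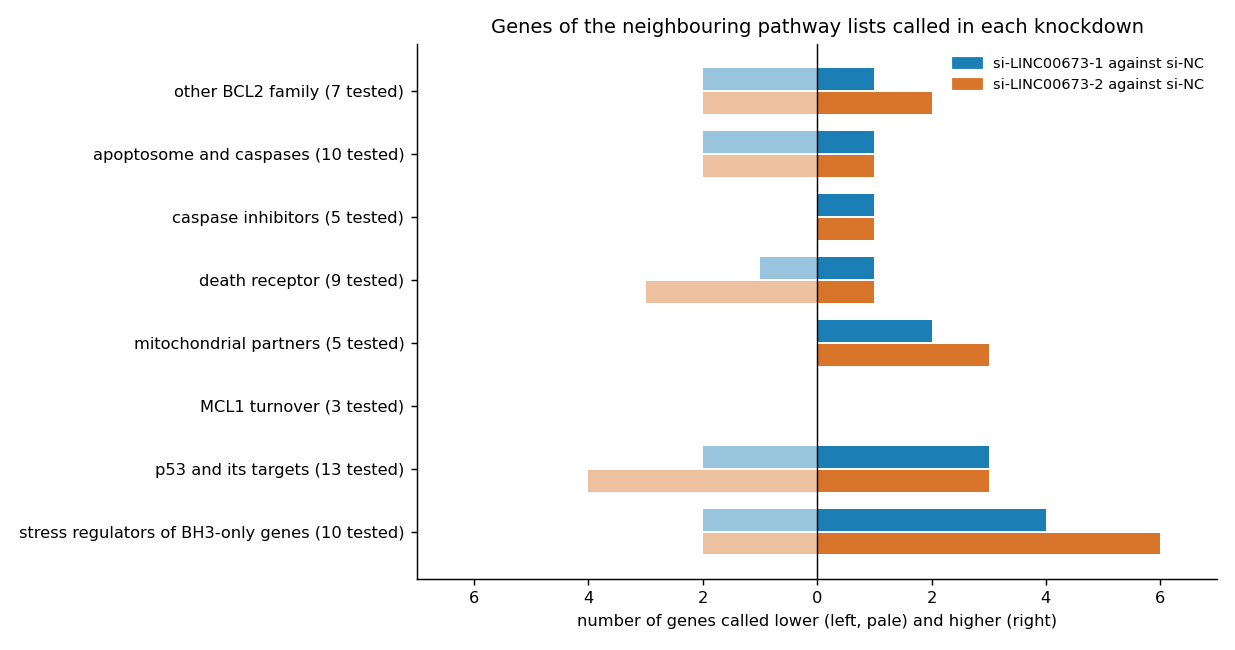
Number of genes called higher (right, full colour) and lower (left, pale) against si-NC (horizontal axis) in each list, with the number tested beside its name, for si-LINC00673-1 (blue) and si-LINC00673-2 (orange). The stress regulator list has the most genes called higher, 4 and 6 of 10. The mitochondrial partners, the caspase inhibitors and the MCL1 turnover list have 0 called lower, and MCL1 turnover also has 0 called higher. The lists were chosen with earlier results of these data known.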

How the data were processed

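RNA sequencing of 9 libraries in 3 groups was used, with the groups taken from the titles, whose numbers 1 and 2 were read as the siRNA numbers. The authors deposited 1 table of FPKM per gene, with Bowtie2 version 2 and GRCh37.p13 named in the submitters' processing notes. The FPKM of each library stand 2 times with equal values, 4 broken lines were left out, and the columns of log2 ratios between groups with their P and Q values were not used. Values were tested as log2(FPKM + 1) for the 12884 genes whose mean reached 1 FPKM, by limma (3.58.1, under R 4.3.3) with trended empirical Bayes, all 9 libraries and group as the single factor, and the step was tested on simulated data. Depth was estimated from steps between low FPKM values, and for the single-transcript members gave 518 to 1243 fragments for PMAIP1, 1254 to 1881 for BAK1 and 892 to 1260 for BIK. Counts were not rebuilt. GC correction removed, per library, the median trend over GC content of GENCODE release 29 transcripts, which 98.1% of known tested genes had. The trend was constant past the medians of the lowest and highest GC bins. Seed sites were sought in the same transcripts. Promoter windows and their motifs came from RefSeq on GRCh38.p14, and overlaps between listed genes were read on GRCh37.p13. Coordinates were not mixed. The members and lists were chosen with earlier results of these data known. The text names the members, BCL2, and from each list up to 3 genes called in the same direction with both siRNAs that had the largest mean difference; GPR137, BCL2L2 and BCL2L2-PABPN1 were added after values had been seen because of overlap. Figures were drawn in Python 3.11.15 with matplotlib 3.10.9. Alternatives were other added values, filters, limits and scalings, a replicate block and each library left out in turn.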

Additional observations from a re-analysis of the deposited data

Results flagged for a closer look

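BBC3 was the 1 member whose response differed between the siRNAs past both limits in the values as deposited. Against si-NC, si-LINC00673-1 gave a difference of -1.89 and si-LINC00673-2 one of -1.20, and the direct limma test of si-LINC00673-2 against si-LINC00673-1 gave 0.68 (95% interval 0.36 to 1.01, adjusted P = 0.0045). The value was 0.67 after GC correction and ranged from 0.58 to 0.83 when each library was left out in turn. BIK and PMAIP1 also passed between the siRNAs by the median ratio (0.47 and 0.41), with GC correction (0.43 and 0.46) and without library r2 of si-LINC00673-2 (0.42 and 0.39).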

How the results depend on the processing

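Of 447 recomputed differences of single members, 411 kept their direction and their side of the limits, 14 passed them newly, 4 no longer passed and 18 changed sign, 2 of which (BAD with si-LINC00673-1) also lost their call. Members called numbered 5 with si-LINC00673-1, 4 with si-LINC00673-2 and 1 between the siRNAs. A fold limit of 1.5 gave 2 and 2 against si-NC, a limit of 2 gave 1, 2 and 0 in the 3 comparisons in that order, and no limit gave 9, 9 and 8, which follows from the limits themselves. TPM gave 3 with si-LINC00673-1, GC correction 3 there and 3 between the siRNAs, and the median ratio 3 between the siRNAs; the cause was not tested. Leaving out single libraries gave 5 to 5, 4 to 5 and 1 to 3, the last without r2 of si-LINC00673-2, when PMAIP1 (0.39) and BIK (0.42) also passed. An added value of 0.1 FPKM, no filter, a minimum of 5 FPKM, an adjusted P or only the libraries compared kept the counts within 1.5 times.

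Class medians moved by more than the spread between libraries under scaling. The anti-apoptotic median became 0.13, 0.15 and 0.014 in TPM, 0.23 with si-LINC00673-2 and 0.18 between the siRNAs by the median ratio, and 0.20 and 0.17 there with GC correction. The effector median became 0.096 with si-LINC00673-1 and 0.08 between the siRNAs in TPM, 0.25 with si-LINC00673-2 and 0.25 between the siRNAs by the median ratio, and 0.14, 0.33 and 0.20 with GC correction. For BH3-only members it became 0.16 with si-LINC00673-2 and 0.35 between the siRNAs by the median ratio, and 0.061, a change of sign, and 0.20 against si-NC with GC correction. Smaller moves also crossed 0: the BH3-only median became 0.012 with si-LINC00673-1 in TPM and -0.014 with si-LINC00673-2 at a minimum of 5 FPKM, and the effector median with si-LINC00673-1 -0.006 without the first library of that siRNA and -0.005 without r1 or r2 of si-NC.

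Single members that changed sign were small or GC-rich. BAD became 0.061 and 0.24 with GC correction. BID with si-LINC00673-2 became 0.085 by the median ratio, 0.008 in TPM and 0.001 with GC correction, and ranged from -0.056 to 0.032 over the libraries left out, as BIK with si-LINC00673-1 did from -0.008 to 0.035. Between the siRNAs, BCL2L1 became 0.04 by the median ratio and 0.005 with GC correction, and BCL2L11 0.03 and 0.051.

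The replicate labels repeat in each group, and deviations of same-label libraries from their group means had correlations from -0.239 to 0.104. Libraries of different labels were not compared in this way, so these values cannot tell whether the labels pair libraries. With the replicate label as a block, 5, 4 and 1 members were called in the 3 comparisons, and with the block and GC correction together each value above was the same as with GC correction alone. FPKM carry no counts, so counting error is not separated from the spread between libraries.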
